A study of Mus musculus with 16 samples.

Results

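Smo, Sufu and Spop are the genes altered in the medulloblastomas compared in this series. Chromatin immunoprecipitation and sequencing (ChIP-seq) at postnatal day 13 had been run for Gli2 and for the histone marks H3K27ac and H3K36me3. The double knockout (DKO) mice lack both Sufu and Spop, and the SmoM2 mice overexpress SmoM2, a constitutively active form of Smo. The 16 libraries form 8 groups of 2, and the 12 ChIP libraries are represented by 6 called region lists, 1 for each genotype and antibody. The promoter or Cre line behind either model, the deleted exons and whether the 2 libraries of a group came from separate animals are not stated in the labels.

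All called regions in 3 fixed windows of mouse build mm9 were used: chr6:29650001-29750000 for Smo (100 kb), chr19:46450001-46600000 for Sufu (150 kb) and chr11:95250001-95380000 for Spop (130 kb). Of 209254 regions in the 6 lists, 182 lay in these windows, 16 at Smo, 87 at Sufu and 79 at Spop. Since each list stands for 2 libraries, every difference between genotypes is a description with no replicate check and no test. Read numbers are not stated, so the depth of the histone lists is unknown, and the lack of a called region in a list does not mean that the mark or the protein was missing. The lists name no genes and no mm9 annotation was at hand, so promoters, exons and introns are not assigned to the regions below. For the same reason, a deletion in Sufu or Spop could not be checked against exons, and the tissue label could not be checked against marker genes.

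The 3 genes act at successive steps of Hedgehog signalling. Smo is the membrane protein that passes the signal on once Ptch1 no longer restrains it. Sufu binds Gli proteins in the cytoplasm and keeps them from acting in the nucleus. Spop is the adaptor through which a Cul3 ubiquitin ligase recognises Gli2 and Gli3 for degradation. Hedgehog signalling drives the proliferation of cerebellar granule neuron progenitors, the cells from which this kind of medulloblastoma arises. Gli2 is its main transcriptional activator. H3K27ac is found at promoters and enhancers in use, and H3K36me3 lies over the bodies of transcribed genes.

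The sequences just upstream of the 3 genes are shown because Gli2 was called in the window of each gene in DKO tumours. They are the 250 bases before the annotated start, from RefSeq for build GRCm38.p6, all on the plus strand. The Smo sequence is chr6:29735247-29735496, the Sufu sequence chr19:46396646-46396895 and the Spop sequence chr11:95413833-95414082 of that build, and these positions cannot be set beside the mm9 positions of the called regions. Capitals mark CCACCC or its reverse complement GGGTGG, the core of the Gli consensus GACCACCCA.
Smo: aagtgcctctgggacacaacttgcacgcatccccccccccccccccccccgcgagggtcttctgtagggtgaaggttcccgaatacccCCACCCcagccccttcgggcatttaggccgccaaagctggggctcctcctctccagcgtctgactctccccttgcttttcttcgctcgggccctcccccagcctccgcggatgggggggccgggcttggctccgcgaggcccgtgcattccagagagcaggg
Sufu: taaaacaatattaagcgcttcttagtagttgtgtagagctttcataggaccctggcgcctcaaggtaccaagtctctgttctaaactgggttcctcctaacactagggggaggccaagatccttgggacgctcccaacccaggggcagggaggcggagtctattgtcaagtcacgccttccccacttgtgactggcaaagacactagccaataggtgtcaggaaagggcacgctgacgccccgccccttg
Spop: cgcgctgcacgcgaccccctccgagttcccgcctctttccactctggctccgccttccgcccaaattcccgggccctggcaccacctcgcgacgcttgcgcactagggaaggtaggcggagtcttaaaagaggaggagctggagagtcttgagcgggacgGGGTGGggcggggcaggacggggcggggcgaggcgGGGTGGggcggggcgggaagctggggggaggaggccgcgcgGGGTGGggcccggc
None of the 3 held the whole consensus on either strand, which 0.225% of 32851 promoters of the same length held. The core occurred 1 time upstream of Smo and 3 times upstream of Spop and was not in the Sufu sequence, and 28.1% of all promoters held it at least 1 time. The 3 Spop matches lay in G-rich sequence. The share of G and C was 68.4% upstream of Smo, 54.0% upstream of Sufu and 73.6% upstream of Spop. Its median over all promoters was 52.4%, and the share of 28.1% was not matched for it. A match is a run of letters and not a site shown to be bound, and whether any called region covers these bases was not determined.

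Gli2 was called in all 3 windows in DKO tumours and in none of them in SmoM2 tumours. The windows held 7 Gli2 peaks of the DKO list, 1 at Smo, 3 at Sufu and 3 at Spop, and 0 of the SmoM2 list in each case. Being called in DKO tumours alone was the usual state of a DKO peak, as 94.0% of the 1426 peaks of that list shared no base with any of the 148 SmoM2 peaks. The nearest SmoM2 Gli2 peaks lay 182 to 183 kb from the peaks at Spop, 15.3 Mb from the peak at Smo and at least 42.4 Mb from those at Sufu. Gli2 peaks of DKO tumours occurred in 15.9% of 100 kb tiles of the chromosomes that had at least 1 kb of H3K27ac in both genotypes. Tiles with at least 3 were fewer, 1.55% of those of 150 kb and 1.55% of those of 130 kb.

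**Figure D1:**
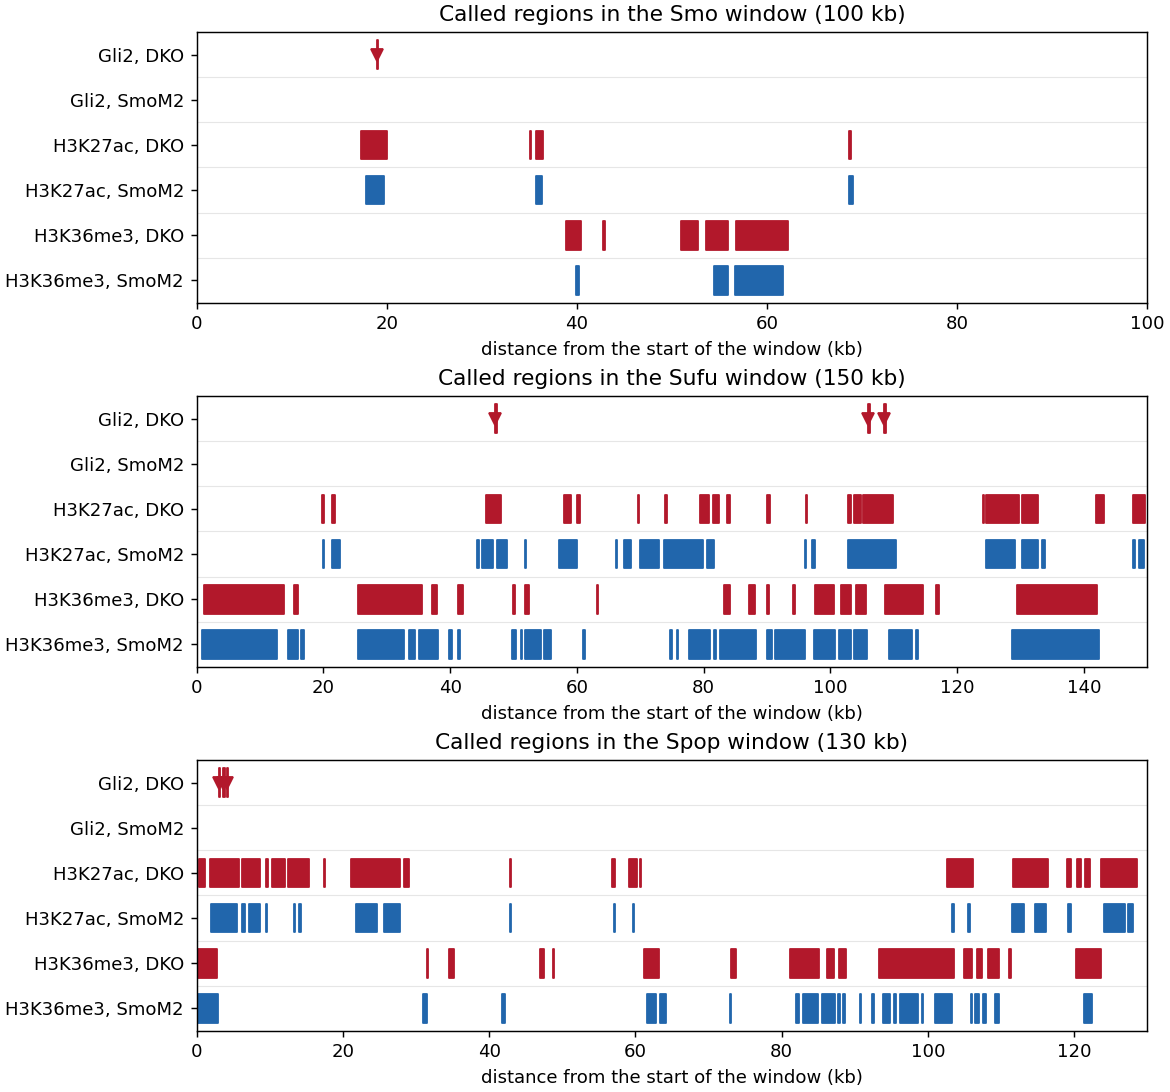
Called regions in the windows of Smo, Sufu and Spop, drawn by distance in kb from the start of each window, with the DKO list (red) above the SmoM2 list (blue) for each antibody. Triangles mark Gli2 peaks, which number 7 in DKO and 0 in SmoM2 tumours, and the narrowest regions are drawn at the width of a line.

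The peaks differed widely in strength. The authors' fold enrichment is each peak's own value over a local background and ranks it only within its list. The highest of the 7 lay in the Spop window at chr11:95253552-95253918, with a fold enrichment of 27.8, a −log10 q of 76.4 and rank 44 of 1426. Peaks at chr11:95253118-95253248 (fold enrichment 8.26, rank 916) and chr11:95254144-95254325 (14.8, rank 297) lay on either side of it. All 3 fell within 1 stretch of H3K27ac that was called in both genotypes, at the low-coordinate edge of the window, on the side of Slc35b1, which precedes Spop in the RefSeq gene order. With the window narrowed by 10 kb on each side the Spop count was 0, so these peaks were at the edge and cannot be assigned to Spop rather than to its neighbour.

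In the Sufu window, the peak at chr19:46558465-46558700 had a fold enrichment of 22.2, a −log10 q of 55.3 and rank 93. The peak at chr19:46556040-46556199 (fold enrichment 6.26, rank 1111) lay in the same DKO H3K27ac region. The third, at chr19:46497162-46497350 (11.3, rank 554), lay in H3K27ac of DKO tumours and in none of SmoM2 tumours. It fell in a gap of 704 bp between the SmoM2 H3K27ac regions chr19:46495084-46496759 and chr19:46497464-46498897, so acetylation was called on both sides of it in SmoM2 tumours too. The single peak of the Smo window, at chr6:29669012-29669130, was a weak one, with a fold enrichment of 5.88, a −log10 q of 8.23 and rank 1108. It lay in H3K27ac of both genotypes.

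The authors' fold and −log10 p together give the number of DNA fragments behind each peak. The peak at rank 44 had 63 fragments and the peak at rank 93 had 50, while the other 5 had 18 to 33. The expected background was 1.30 fragments at 5 of the 7 sites, the lowest of the DKO list, 2.19 at the weaker of the neighbouring Sufu peaks and 2.74 at the Smo peak. At the lowest background of its own list, a SmoM2 peak was called with as few as 10 fragments and a DKO peak with as few as 9. The share of DKO peaks also called in SmoM2 tumours differed with their rank: with the DKO peaks ordered by −log10 q and cut into 10 parts of about equal size, 30.3% of the first part, to which ranks 44 and 93 belong, were also in the SmoM2 list, and 0.725% of part 8, which holds the Smo peak.

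All 7 peaks lay in H3K27ac of DKO tumours and 6 in H3K27ac of SmoM2 tumours. Over the whole DKO list the shares were 53.0% and 48.9%. The Spop peaks all lay in the same DKO region, and the neighbouring Sufu peaks shared another, so the 7 are not separate cases. A single one of the 7, the Sufu peak with rank 93, also touched H3K36me3, in DKO tumours. Of all DKO peaks, 2.31% touched H3K36me3 of DKO tumours.

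The histone marks differed in direction between Sufu and the other two genes. Marked length is given as DKO over SmoM2, and over the whole lists this ratio was 1.33 for H3K27ac (25.2 Mb in DKO tumours, 18.9 Mb in SmoM2 tumours) and 1.19 for H3K36me3 (165 Mb in DKO tumours, 138 Mb in SmoM2 tumours). At Smo and Spop, both marks were more extensive in DKO tumours, as they were over the whole lists. At Sufu, both were less extensive in DKO tumours, with a ratio of 0.724 for H3K27ac, which turned to 1.40 when regions at most 10 kb apart were joined, and 0.764 for H3K36me3. To place these values, the chromosomes were cut into tiles of the length of each window, and a ratio at least 1.5 times above or below the list-wide ratio was counted as departing from it. The median ratio of these tiles was 1.22 to 1.24 for H3K27ac and 1.15 to 1.16 for H3K36me3.

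**Figure D2:**
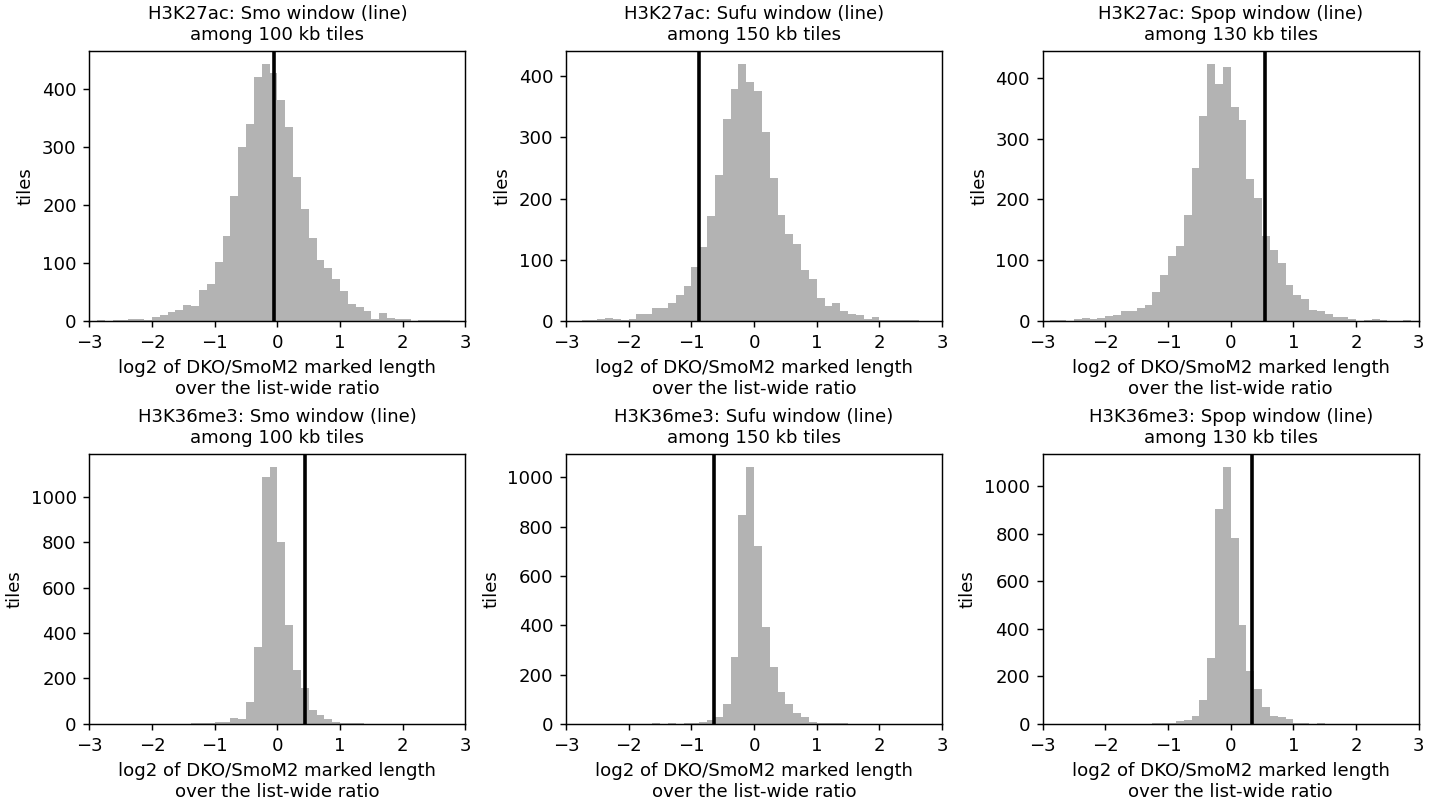
Number of genome tiles (y) by the log2 of their DKO over SmoM2 marked length, divided by the list-wide ratio of the mark (x, 0 is the list-wide ratio), with a black line at each window's own value. Tiles have at least 1 kb of H3K27ac or 10 kb of H3K36me3 in both genotypes, which the Smo window does not reach for H3K36me3, and the Sufu window lies at the low end of both marks.

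Smo had little H3K27ac and was near the list-wide ratio. Marked length was 3.77 kb in DKO tumours and 2.94 kb in SmoM2 tumours, a ratio of 1.28. This is 0.962 times the list-wide ratio, and 56.2% of 4357 tiles had a ratio at or below it. The window did not depart from the list-wide ratio, as 28.4% of 100 kb tiles did. The same 3 sites were acetylated in both genotypes. The strongest was chr6:29685649-29686440 in DKO tumours (fold enrichment 8.53, −log10 q 14.8, rank 791 of 29504) and chr6:29685683-29686307 in SmoM2 tumours (6.58, 8.95, rank 1031 of 21630).

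The other acetylated sites at Smo lay to either side. The widest, which holds the Gli2 peak, was chr6:29667313-29670011 in DKO tumours (fold enrichment 4.49) and chr6:29667782-29669679 in SmoM2 tumours (5.39). It lies on the side of Tspan33, the gene before Smo in the RefSeq order. The third was 177 bp wide in DKO tumours and 418 bp in SmoM2 tumours. DKO tumours had 1 further region, of 105 bp, with a fold enrichment of 2.98 and a −log10 q of 1.20, rank 29245 of its list.

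H3K36me3 at Smo lay between 38.9 and 62.2 kb into the window and covered more of it in DKO tumours. There it was called in 5 regions covering 11.3 kb, against 3 regions covering 6.94 kb in SmoM2 tumours, a ratio of 1.62. The main block, with neighbours within 1 kb joined, was chr6:29700943-29712218 in DKO tumours (11.3 kb long) and chr6:29704403-29711735 in SmoM2 tumours (7.33 kb long). Nearly all SmoM2 bases were within DKO regions, as 2.33% of them were marked in SmoM2 tumours only, against 14.9% over the list. Of DKO bases, 39.8% were marked in DKO tumours only, against 28.7% over the list. The longest such DKO stretch was chr6:29700943-29702692 (1.75 kb, fold enrichment 3.03). The ratio was 1.36 times the list-wide one and so did not depart from it by the 1.5-fold rule, as 3.51% of 100 kb tiles did, but with regions joined it did, at 1.53 times above (at most 1 kb apart) and 2.96 times above (at most 10 kb apart). The SmoM2 length is under the 10 kb required of tiles, and among the 8722 tiles with any H3K36me3 in both genotypes 79.2% had a ratio at or below it. No stretch of either mark at Smo that was marked in SmoM2 tumours only was longer than 0.286 kb.

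With regions and windows as given, the Sufu window departed below the list-wide ratio in both marks and the other two windows in neither. These calls depend on the processing: the Sufu window fell short of a departure in H3K36me3 when widened by 50 kb on each side (1.48 times below) and in both marks when regions at most 10 kb apart were joined (1.03 times below for H3K27ac and 1.20 times for H3K36me3). H3K27ac covered 26.0 kb in DKO tumours and 35.9 kb in SmoM2 tumours, 1.84 times below the list-wide ratio, with 7.34% of 4005 tiles at or below it. Of 150 kb tiles, 28.3% departed by at least 1.5 times in H3K27ac, in either direction. H3K36me3 covered 54.1 kb in DKO tumours and 70.8 kb in SmoM2 tumours, 1.56 times below the list-wide ratio. For this mark 4.07% of 150 kb tiles departed, and 34 of 3955 tiles (0.860%) had a ratio at or below that of Sufu. Without a minimum marked length per tile, that share was 7.43%.

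**Figure D3:**
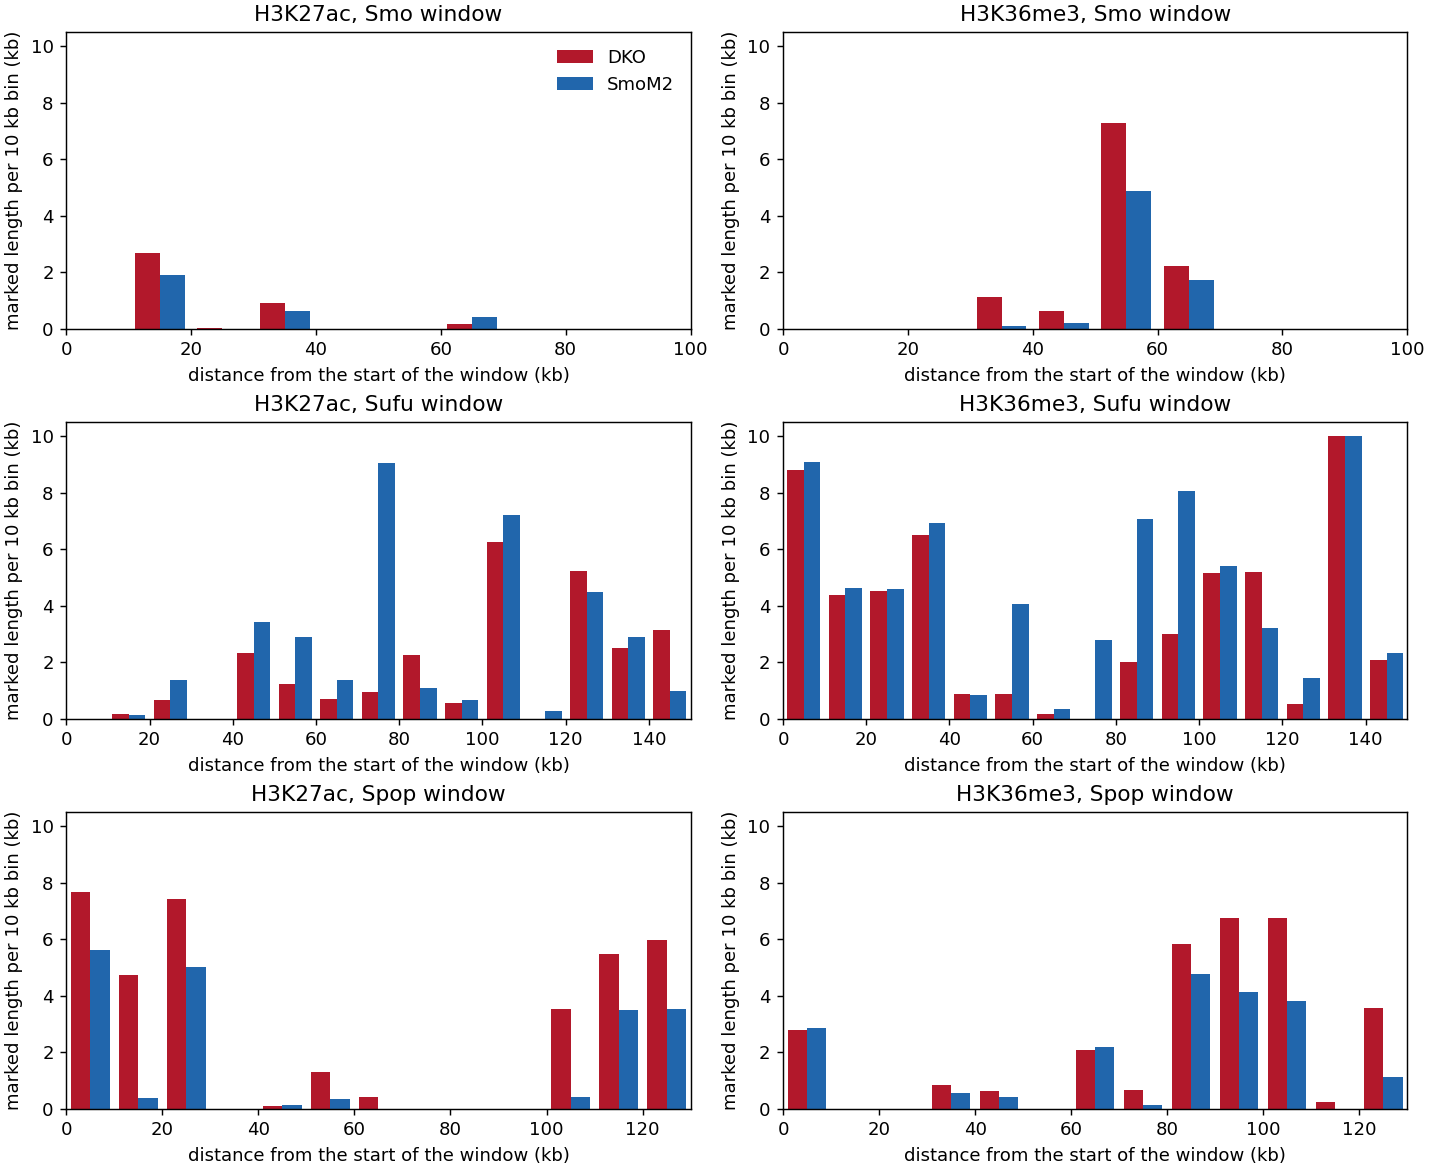
Marked length in kb (y) in each 10 kb bin of the 3 windows by distance from the start of the window in kb (x), with DKO (red) left of SmoM2 (blue), for H3K27ac and H3K36me3. The lower H3K36me3 values of DKO tumours at Sufu lie mainly between 50 and 100 kb, where the mark covered 6.05 kb in DKO tumours, against 22.3 kb in SmoM2 tumours.

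The lower H3K36me3 of DKO tumours at Sufu lay mainly in 50 kb in the middle of the window. Bins low in H3K27ac were more spread out, but most of the difference in acetylated length lay in the same 50 kb. The bin between 70 and 80 kb into the window alone had 0.957 kb of H3K27ac in DKO tumours and 9.055 kb in SmoM2 tumours. Among 10 kb bins with at least 1 kb marked in either genotype, H3K36me3 was at least 1.5 times below the list-wide ratio in 5 of 13 bins of the Sufu window, against 9.78% of such bins over the chromosomes. None of the 13 was 1.5 times above it, against 21.2%. For H3K27ac, 7 of 10 bins were below, against 21.7%, and 2 were above, against 25.7%. The longest run of adjacent bins low in H3K36me3, with no minimum applied, was chr19:46500001-46550000. This stretch was picked out after its values were seen, so its values are a description.

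In that stretch, H3K36me3 covered 6.05 kb in DKO tumours and 22.3 kb in SmoM2 tumours, a ratio of 0.271. H3K27ac covered 5.73 kb in DKO tumours and 15.1 kb in SmoM2 tumours, a ratio of 0.380. In the other 100 kb of the window the totals of the genotypes were close to each other, with 48.1 kb of H3K36me3 in DKO tumours against 48.5 kb in SmoM2 tumours (ratio 0.991) and 20.2 kb of H3K27ac in DKO tumours against 20.8 kb in SmoM2 tumours (ratio 0.972). Both ratios of this part were still below the list-wide ones, 1.19 for H3K36me3 and 1.33 for H3K27ac. The acetylation total there sums bins that went both ways. Of the 7 bins low in H3K27ac, 3 lay in the stretch and 4 outside it, and of the 2 high ones 1 lay in the stretch. The high bin outside, between 140 and 150 kb into the window, had 3.13 kb in DKO tumours and 0.969 kb in SmoM2 tumours. Of the 5 bins low in H3K36me3, 4 lay in the stretch, and the other, between 120 and 130 kb, had 0.530 kb in DKO tumours and 1.44 kb in SmoM2 tumours. Over the chromosomes, 72 runs of 5 or more adjacent bins low in H3K36me3 were found, counted with no minimum marked length per bin. Of these, 11 held at least as much H3K36me3 in SmoM2 tumours as the Sufu run. Both counts include the Sufu run itself.

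Several long stretches were marked in SmoM2 tumours alone. For H3K27ac the longest was chr19:46524284-46529382 (5.10 kb), part of a SmoM2 region at chr19:46523801-46529899 with a fold enrichment of 5.81 and rank 1332 of 21630. In its place DKO tumours had a region of 339 bp, chr19:46523945-46524283 (fold enrichment 5.86, rank 3914 of 29504), and the start of another, so acetylation was called there over a short part in place of the whole. The next longest, chr19:46519922-46522956 (3.04 kb) and chr19:46517452-46518476 (1.03 kb), had no DKO counterpart. For H3K36me3 the longest were chr19:46527720-46531033 (3.31 kb), chr19:46534144-46537166 (3.02 kb) and chr19:46541297-46544126 (2.83 kb). All 6 lay inside the 50 kb stretch, and the first of the H3K27ac and of the H3K36me3 stretches overlapped each other.

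In all, 47.0% of the acetylated bases of SmoM2 tumours at Sufu were marked in SmoM2 tumours only, against 24.3% over the list, and for H3K36me3 31.9% against 14.9%. In the other direction, 26.7% of the acetylated bases of DKO tumours and 10.8% of their H3K36me3 bases at Sufu were marked in DKO tumours only, against 43.3% and 28.7% over the lists. The longest of these was chr19:46591894-46593195 (1.30 kb) for H3K27ac and chr19:46462647-46463789 (1.14 kb) for H3K36me3. Both lay outside the 50 kb stretch.

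The strongest regions of the Sufu window were called in both genotypes, but not always over the same length. The SmoM2 H3K27ac region at chr19:46523801-46529899, among the 5 highest, shared 856 of its 6099 bp with DKO regions. The strongest acetylated region was chr19:46574648-46579731 in DKO tumours (fold enrichment 10.1, −log10 q 20.4, rank 277) and chr19:46574650-46579136 in SmoM2 tumours (8.69, 16.5, rank 136). The region with the leading Gli2 peak of the window was chr19:46555195-46559898 in DKO tumours (5.57, rank 4347), and all of it was also acetylated in SmoM2 tumours. Narrow regions at chr19:46469842-46470174 (333 bp) and chr19:46471436-46471916 (481 bp) in DKO tumours had SmoM2 counterparts of 316 and 1197 bp. Their fold enrichment was 6.39 and 6.17 in the DKO list and 5.95 and 5.55 in the SmoM2 list. Of the 5 highest SmoM2 regions, that at chr19:46495084-46496759 (5.66, rank 1795) also overlapped a DKO region.

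Long blocks of H3K36me3 lay inside the window near both of its ends. Towards the high-coordinate end was chr19:46579471-46592092 in DKO tumours (12.6 kb) against chr19:46578558-46592320 in SmoM2 tumours (13.8 kb). Towards the low-coordinate end was chr19:46451178-46463789 in DKO tumours (12.6 kb) against chr19:46450894-46462646 in SmoM2 tumours (11.8 kb). Another ran over chr19:46475488-46485588 in DKO tumours (10.1 kb) and chr19:46475417-46488108 in SmoM2 tumours (12.7 kb). Sufu lies between Actr1a and Trim8 in the RefSeq order, and which of these blocks belong to the neighbours was not determined. Both marks met often here, as 25.7% of the acetylated bases of DKO tumours and 28.9% of those of SmoM2 tumours in the window lay in H3K36me3, against 8.20% and 5.14% over the lists.

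Spop, the other gene knocked out in DKO tumours, had 0 bins below the list-wide ratio by this rule in either mark, and both marks were more extensive in DKO tumours. H3K27ac covered 36.6 kb of its window in DKO tumours and 18.9 kb in SmoM2 tumours, a ratio of 1.94. This is 1.45 times the list-wide ratio, just under the 1.5-fold rule, by which 28.4% of 130 kb tiles departed, and 87.6% of 4142 tiles had a ratio at or below it. With the window widened by 50 kb on each side the ratio was 2.16, and narrowed by 10 kb 2.36, which are departures of 1.62 and 1.77 times above the list-wide ratio. With regions at most 10 kb apart joined it changed side. It was then 1.09 against a list-wide 1.44, or 1.32 times below, short of a departure. H3K36me3 covered 30.1 kb in DKO tumours and 20.0 kb in SmoM2 tumours, a ratio of 1.51. This is 1.26 times the list-wide ratio and no departure. With only regions of a −log10 q of at least 2 the ratio was 1.765, a departure of 1.51 times above the list-wide ratio. In this mark 3.90% of 130 kb tiles departed, and 91.2% of 4175 tiles had a ratio at or below that of Spop.

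Acetylation at Spop in SmoM2 tumours lay almost wholly within that of DKO tumours. Marked length in SmoM2 tumours only was 0.240 kb, or 1.27% of their acetylated bases there, against 24.3% over the list. In DKO tumours only it was 18.0 kb, or 49.1%, against 43.3% over the list. The longest such stretches were chr11:95353458-95355457 (2.00 kb), chr11:95260386-95262078 (1.69 kb) and chr11:95363086-95364636 (1.55 kb). Of the 7 bins with at least 1 kb, 3 were at least 1.5 times above the list-wide ratio, against 25.7% over the chromosomes, and 0 were below, against 21.7%. In the first of these 3, between 10 and 20 kb into the window, 4.73 kb was acetylated in DKO tumours and 0.375 kb in SmoM2 tumours.

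The strongest acetylated region of the Spop window held the 3 Gli2 peaks. It was chr11:95251773-95255828 in DKO tumours (fold enrichment 7.61, −log10 q 13.4, rank 1024 of 29504) and chr11:95251942-95255513 in SmoM2 tumours (5.84, 7.36, rank 1643 of 21630). The widest in DKO tumours was chr11:95271122-95277862 (6.74 kb, 5.81, rank 3414), which spans 2 SmoM2 regions, among them chr11:95275617-95277747 (2.13 kb, 4.89, rank 3357). At the far end, DKO regions at chr11:95361560-95366441 (5.79) and chr11:95373697-95378627 (6.07) lay over SmoM2 regions at chr11:95361487-95363085 (4.57), chr11:95364637-95366111 (4.33) and chr11:95374080-95376901 (4.22). The DKO region at chr11:95256250-95258737 (4.86) completes the 5 highest of its list here.

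H3K36me3 at Spop was densest between 80 and 110 kb into the window. The longest block in DKO tumours was chr11:95343262-95353544 (10.3 kb), unbroken, where SmoM2 tumours had shorter ones, the longest of them there being chr11:95343886-95349354 (5.47 kb, of which 3.80 kb was marked). For this mark the DKO list as a whole had fewer regions over a greater length. It held 67064 regions over 165 Mb, against 89482 over 138 Mb in the SmoM2 list. The longest SmoM2 block of the window was chr11:95331923-95338675 (6.75 kb, of which 4.76 kb was marked), and in DKO tumours the block at chr11:95331195-95335080 was 3.89 kb. The second longest DKO block was chr11:95354870-95359670 (4.80 kb, of which 3.22 kb was marked), and the third longest SmoM2 block, chr11:95250001-95252868 (2.87 kb), was cut by the edge of the window. The longest stretch marked in DKO tumours only was chr11:95349355-95351046 (1.69 kb), and in SmoM2 tumours only chr11:95313346-95314247 (0.902 kb). In DKO tumours 46.5% of the marked bases there were marked in DKO tumours only, against 28.7% over the list, and 19.4% of those of SmoM2 tumours in SmoM2 tumours only, against 14.9%. Of 6 bins with at least 1 kb, 1 was at least 1.5 times above the list-wide ratio, against 21.2% over the chromosomes, and 0 were below, against 9.78%.

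Regions were also counted whole, by whether they shared any base with the list of the other genotype. Of 43 DKO H3K27ac regions in the 3 windows, 14 shared no base with the SmoM2 list, against 47.3% of that list. Of 41 SmoM2 H3K27ac regions, 8 shared no base with the DKO list, against 26.6%, and all 8 were among the 20 at Sufu. For H3K36me3, 8 of 39 DKO regions shared no base with the SmoM2 list, against 31.1%. Of 52 SmoM2 H3K36me3 regions, 14 shared no base with the DKO list, against 25.2%, and of these 9 were among the 26 at Sufu, 5 among the 23 at Spop and 0 among the 3 at Smo.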

How the data were processed

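ChIP-seq libraries of DKO and SmoM2 medulloblastomas were grouped as labelled, by genotype and antibody. Per the labels, both libraries of a group share 1 deposited list of called regions. Per the submitters' processing notes, the tools were Trimmomatic 0.36, BWA, MACS2 and bedtools, and the build was mm9. Their roles, settings, the use of the 4 input libraries and the way replicates were merged are not stated. The labels' protocol also names an Olig2 antibody on the beads, so Gli2 lists are named by the antibody of each sample.

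The authors' columns are start and end, a fold enrichment (a ratio over local background), −log10 p and −log10 q, and for Gli2 the summit. The score column the authors deposited was not used. These values only describe or rank regions within a list. Overlap means at least 1 shared base, and bases are clipped to the windows. Tiles and bins cover chromosomes 1 to 19, X and Y from base 1, assembly gaps included, with mm9 lengths from GenomeInfoDb. Fragment numbers were solved from fold = (fragments + 1) / (background + 1) and the upper Poisson tail, within 0.01 of −log10 p, for 1425 of 1426 DKO and 148 of 148 SmoM2 peaks. When regions were filtered or joined, the list-wide ratio was recomputed in the same way. Interval arithmetic and this recovery were tested on simulated data. Gene names and gene order came from the RefSeq table of GRCm38.p6, and no coordinate was converted.

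The members and windows were chosen with earlier results of these data known. By the rule for what is named, every Gli2 peak is given, all H3K27ac regions where a genotype has at most 10 and otherwise the 5 with the highest −log10 q, the 3 longest H3K36me3 blocks after joining at most 1 kb apart, and the longest stretches marked in 1 genotype only. Of the 3 per mark and genotype that the rule names, those under 1 kb are mostly left out. Markers of the tissue listed for a check need an mm9 annotation and are not analysed here. The software was Python 3.11.15 with matplotlib 3.10.9, scipy 1.17.1, pandas 2.3.3 and numpy 2.4.6.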

Additional observations from a re-analysis of the deposited data

How the results depend on the processing

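Of 108 values recomputed under settings listed in advance, 79 kept their direction and stayed within 1.5 times the reported value (within the Wilson interval for shares of tiles), 28 moved further and 1 reversed. Joining regions at most 10 kb apart turned the H3K27ac ratio at Sufu to 1.40 and moved that at Spop to 1.09 and the H3K36me3 ratio at Smo to 3.05, as joining by its construction fills the gaps between regions. Under the other settings the Sufu ratios stayed between 0.654 and 0.766 for H3K27ac and between 0.691 and 0.860 for H3K36me3, joining at 10 kb included for the latter. Leaving out the 50 kb stretch, a setting added after its values were seen, gave 0.972 and 0.991. Whether a window departs from the list-wide ratio by 1.5 times was recomputed under the same settings after the data were seen, and the calls that changed are those given with each window.

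With no minimum per tile, the shares of tiles at or below the window were 49.1% (Smo), 12.4% (Sufu) and 75.1% (Spop) for H3K27ac and 79.2%, 7.43% and 76.5% for H3K36me3. With the minimum, the share for H3K36me3 at Smo, which does not reach it, was 95.2%. Narrowing the Spop window left 0 Gli2 peaks.

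Lengths marked in 1 genotype only shrink by construction when whole regions are required to share no base with the other list. They were then 0.105 kb (H3K27ac, DKO) and 0 kb (H3K27ac, SmoM2), 1.95 kb (H3K36me3, DKO) and 0 kb (H3K36me3, SmoM2) at Smo. At Sufu they were 2.67, 5.87, 0.715 and 6.77 kb in the same order, and at Spop 4.66, 0, 1.51 and 2.11 kb. Among stretches of at least 500 bases, 0 kb of H3K27ac remained at Smo in either genotype, 0 kb of H3K36me3 at Smo in SmoM2 tumours, 0 kb of H3K27ac at Spop in SmoM2 tumours and 1.67 kb of H3K36me3 at Spop in SmoM2 tumours. Joining at 1 kb gave 0 kb of H3K36me3 at Smo in SmoM2 tumours only and 3.88 kb at Sufu in DKO tumours only.

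No paired analysis was possible because the 2 replicates of a group share 1 list, and no replicate was left out for that reason. The depth of the histone lists is unknown.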
